A study of Mus musculus with 12 samples.

Results

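The intraflagellar transport (IFT) machinery and the BBSome build and supply the primary cilium, the single sensory projection that most mammalian cells can form from their surface. The 35 genes described here encode the IFT-B complex (7 core and 6 peripheral subunits), the IFT-A complex (6 subunits), the dynein-2 motor (4 subunits), the BBSome (7 subunits), 3 small GTPases of the cilium and 2 proteins that deliver receptors or turn over lipid at its membrane. They were chosen by name, and all 35 were found among the 32793 gene rows of the count table. RNA-seq was performed on back skin epidermis, separated from dermis with dispase, of mice of mixed background at 8 weeks of age. The labels give 6 wild type samples and 6 K14Kif3a-/- samples, in which *Kif3a*, the kinesin-2 motor subunit that carries IFT trains outward, is removed through a K14 promoter. That promoter is active in keratinocytes, and other epidermal cells such as Langerhans cells and T cells are not expected to lose the gene.

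Each of the 12 libraries carries the identifier of a mouse and a sequencing lane in the count table, and these identifiers were not matched to the genotype labels. Genotype was not read from the order of the libraries or from any gene, *Kif3a* included. The values below therefore describe epidermis with both genotypes mixed, and no comparison between the genotypes was made. A difference between libraries can hold a difference between genotypes, and the effects cannot be told apart. The libraries are called A to M here, without I, in the order of the table. The level of a gene is given as lowest, median and highest over the 12 libraries, or as its median alone, unless a library is named.

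IFT trains move cargo along the axoneme of the cilium. IFT-B, pulled by kinesin-2, serves transport towards the tip, and IFT-A with dynein-2 serves the return towards the base. The BBSome, recruited to membranes by the GTPase ARL6, rides on the trains and removes signalling receptors from the cilium. Hedgehog signalling, which governs hair follicle growth in skin, is transmitted through the cilium. In interfollicular epidermis, cilia have been linked to the exit of basal keratinocytes towards differentiation.

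Library totals ran from 17788775 counts in library L to 37042852 in library G, and Pearson's r between libraries over detected genes, on log2(CPM + 1), from 0.871 to 0.991. The lane in the column names was lane 5 for 8 libraries, lane 4 for 3 (D, G and M) and lane 6 for 1 (A). Keratinocyte markers were high in every library, with a summed level of 5848 to 12686 counts per 1000000 counts of the library (CPM) for 6 basal markers and 9598 to 29241 CPM for 6 suprabasal markers. None of 5 markers of multiciliated cells passed 1 CPM in 6 libraries, and their summed level was 0.218 to 1.57 CPM, with *Foxj1* at a median of 0. Hair follicle keratins (*Krt25*, *Krt27*, *Krt71*, *Krt33b* and *Krt35*) summed to 3769 CPM in library E and 1087 CPM in library A, against 1.43 to 127 CPM in the other 10 libraries. All 8 hair follicle markers looked at, with *Gata3*, *Lgr5* and *Lhx2* added, summed to 4157 CPM in E, 1990 CPM in A and 588 to 1408 CPM in the others. *Gata3*, *Lgr5* and *Lhx2* together were lowest in library E, so E is called rich only in the keratins. The library E had the lowest sum of basal markers, and library F, at 6292 CPM, the next lowest. Summed levels of the proliferation genes *Mki67*, *Top2a* and *Ccnb1* were 415 CPM in library E and 412 CPM in library F, against 70.1 to 249 CPM in the others. Other marker sums ran from 603 to 1311 CPM for Langerhans cells, 79.1 to 226 CPM for T cells, 669 to 2046 CPM for sebaceous gland, 5.68 to 183 CPM for melanocytes, 32.1 to 278 CPM for fibroblasts, 5.79 to 594 CPM for muscle and 0.580 to 3.98 CPM for endothelium. In bulk epidermis, fewer cells of a type and less RNA per cell cannot be told apart.

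A further difference between the libraries ran through all genes. For each of 13321 detected genes with an annotated transcript, the log2 ratio of each library to the median of that gene was compared with the GC content of its longest transcript. Spearman's rho across genes was −0.64 in library E, −0.60 in library F, −0.50 in library A and −0.35 in library D, and lay between 0.14 and 0.40 in the other 8. Genes are not independent replicates, so these values are descriptions. For the main results on the spread between libraries, the value after each library was divided by its own trend over GC content is given as well.

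The promoters of many ciliary genes carry the X-box, the binding site of RFX transcription factors, a near-palindrome with the half-site GTTGCC. Promoter windows of 300 bases (250 before and 50 after the start, RefSeq, GRCm38.p6) were matched for 31 of the 35 members, and those of *Ift80*, *Ift81*, *Ift122* and *Dync2li1* were not matched. GTTGCC, read on either strand, was found in 12 of 31 members (38.7%), compared with 14.1% of 27025 genes with a promoter in the same reference and 14.4% of the 10531 of them that were detected in the epidermis. The match lay wholly before the RefSeq start in 6 members, *Bbs7*, *Ift57*, *Arl13b*, *Ift140*, *Traf3ip1* and *Ift27*. It lay at or after that start in the other 6, *Ift172*, *Ift88*, *Dync2h1*, *Wdr35*, *Bbs1* and *Bbs5*. In GENCODE M21 the outermost start of *Ift27* is at 78174107, so that its half-site falls inside the gene. The full palindrome GTTNCCNNGGNAAC was found in 1 member, *Bbs7*, and in 0.529% of all genes. It contains the half-site when its first N is G or, on the opposite strand, when its last N is C. Both motifs were chosen after several longer spellings had been looked at in the same windows. The windows are shown for 5 members because they place the motif, in capitals, in 3 subcomplexes and a GTPase.
Bbs7, chr3:36613477-36613530, minus strand: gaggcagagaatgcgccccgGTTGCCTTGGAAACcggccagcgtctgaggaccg
Ift57, chr16:49699187-49699259, plus strand: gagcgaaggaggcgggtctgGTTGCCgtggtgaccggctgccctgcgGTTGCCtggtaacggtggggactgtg
Arl13b, chr16:62847196-62847241, minus strand: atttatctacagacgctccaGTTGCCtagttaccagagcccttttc
Traf3ip1, chr1:91494569-91494614, plus strand: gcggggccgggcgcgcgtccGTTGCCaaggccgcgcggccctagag
Ift140, chr17:25015957-25016002, plus strand: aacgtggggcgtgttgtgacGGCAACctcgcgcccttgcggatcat
*Ift57* held the half-site at 2 places, beginning 87 and 60 bases before its RefSeq start, and the capitals of *Ift140* show the half-site on the opposite strand. In GENCODE M21 the outermost start of *Ift57* is at 49699233, so that only the first of its half-sites lies before it. A match is a description of these letters and was not tested as a binding site. All 5 RFX factor genes looked at were detected, with median levels of 54.2 CPM for *Rfx7*, 28.4 CPM for *Rfx2*, 21.5 CPM for *Rfx1*, 20.4 CPM for *Rfx5* and 9.09 CPM for *Rfx3*.

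All 35 members were detected, at 1 CPM or more in at least 6 libraries, a level reached by 44.5% of all rows of the table. All 35 also reached 1 CPM in each of the 12 libraries, compared with 88.5% of the 14608 detected genes. The counts behind the values were between 58 and 4267 per member and library. In CPM, the median level over the 12 libraries was under 10 for 15 members, from 10 to 30 for another 15 and over 30 for 5. The median member was at 12.4 CPM and the median detected gene at 21.7 CPM, both not corrected for length.

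To compare genes with each other, CPM were divided by the length of the joined exons of each gene in kilobases and scaled to the same total in each library. On this per-kilobase scale the members ranged 1.98 to 178, with a median of 7.61, against 17.5 for all detected genes with a length. Of the 35 members, 26 lay below that median, and the median member stood at percentile 30.4 of detected genes. Every subunit listed was thus measured, most of them at levels below the middle of the detected genes.

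**Figure D1:**
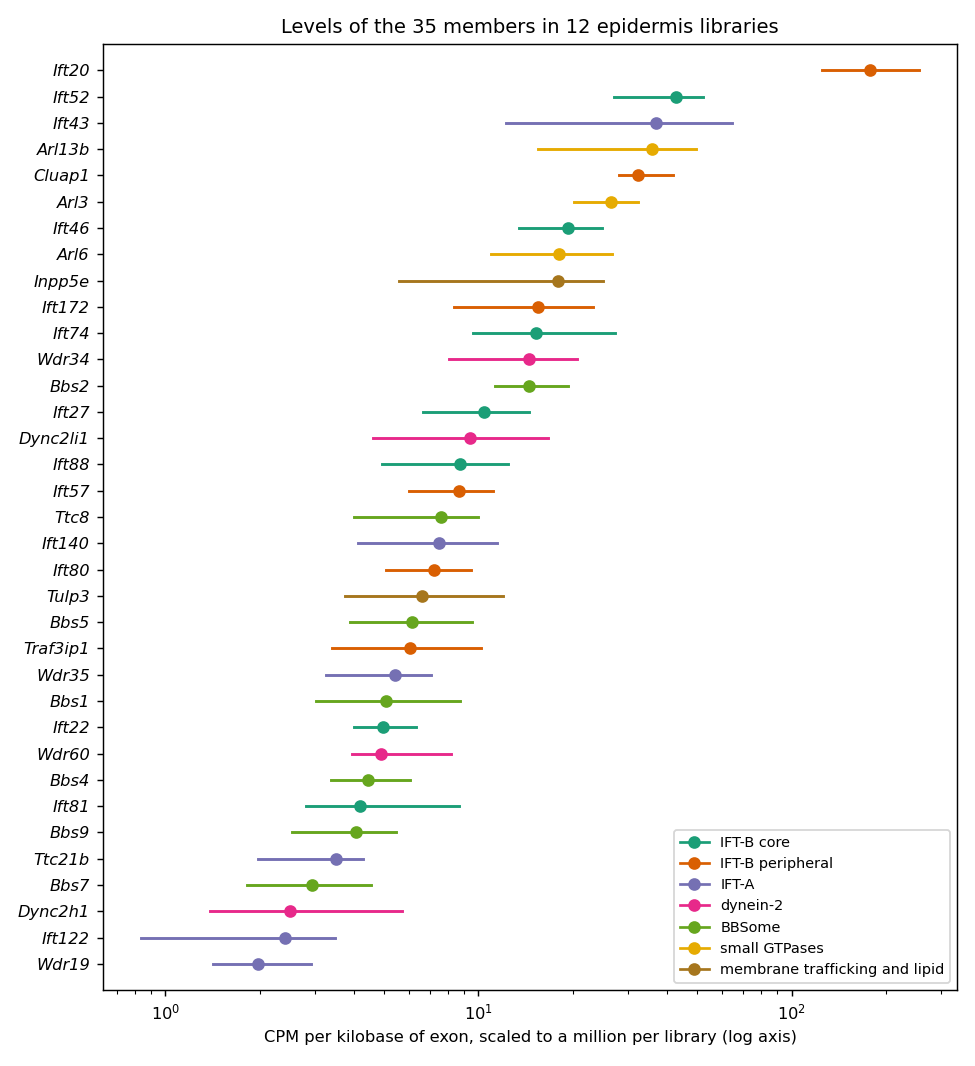
Level per kilobase of exon (log axis) of the 35 members; the point is the median and the line the range over 12 libraries, coloured by subcomplex. *Ift20* stands apart at a median of 178, while the ranges of all other neighbours in the order overlap.

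*Ift20* was the member with the highest level. It encodes an IFT-B subunit that also sits at the Golgi, where it helps to send membrane proteins to the cilium, and lies on chromosome 11 from 78536361 to 78541737 (GRCm38, GENCODE M21). Its level was 125, 178 and 254 per kilobase (lowest, median and highest), at percentile 94.6 of detected genes. Its lowest library lay above the highest library of the next member, *Ift52*, at 52.0, and *Ift20* was the only member whose range did not overlap that of its neighbour in the order. *Ift52*, a core IFT-B subunit, followed with 27.0, 42.7 and 52.0, and *Ift43*, the smallest IFT-A subunit, with 12.2, 36.9 and 64.3.

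At the other end were the large return-transport genes. *Wdr19*, which encodes the IFT-A subunit IFT144, had the lowest level, with 1.42, 1.98 and 2.91 per kilobase. *Ift122*, a further IFT-A subunit, was at 0.838, 2.42 and 3.49, and *Dync2h1*, the heavy chain of dynein-2, at 1.38, 2.49 and 5.69. The ranges of these 3 overlapped, and their order did not exceed the spread between libraries. Their level also depends on the length used, since the joined exons include those of every annotated transcript. With the longest transcript of each gene, *Wdr19*, *Ift122* and *Dync2h1* remained the 3 lowest, while *Arl3* took the place of *Ift52* among the 3 highest. With the principal or first annotated transcript, *Ift22* took the place of *Ift122* among the 3 lowest.

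Within IFT-B, median levels of the core subunits ranged 4.18 (*Ift81*) to 42.7 (*Ift52*) per kilobase and those of the peripheral subunits 6.05 (*Traf3ip1*) to 178 (*Ift20*). *Ift88*, the subunit most often deleted to remove cilia in mice, was at 4.91, 8.70 and 12.4. *Ift74* and *Ift81*, whose proteins form the tubulin-binding module, were at 15.3 and 4.18, or at 14.6 and 6.39 with the longest transcript. *Ift46* was at 13.4, 19.3 and 24.8 and the peripheral *Ift57*, which holds on to IFT20, at 8.68. The remaining IFT-B members lay between these ends, with *Cluap1* at 32.2, *Ift172* at 15.4, *Ift27* at 10.4, *Ift80* at 7.22 and *Ift22* at 4.97. Of 1729 windows of 51 bases in the longest transcript of *Cluap1*, 26.6% were also found on the same strand in transcripts of other genes, mainly *Gm20695*, so its count could hold reads of both.

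IFT-A was the subcomplex with the lowest median, at 4.46 per kilobase, and spread 18.6-fold, from *Wdr19* to *Ift43*. *Ift140* was at 7.47, *Wdr35* at 3.25, 5.41 and 7.04, and *Ttc21b*, which encodes IFT139, at 3.51. Of the dynein-2 genes, the intermediate chain *Wdr34* was at 14.5, the light intermediate chain *Dync2li1* at 9.38 and the second intermediate chain *Wdr60* at 4.88, all above the heavy chain. The 7 BBSome genes lay close together, from 2.94 (*Bbs7*) to 14.5 (*Bbs2*). Between them were *Ttc8* at 7.61, *Bbs5* at 6.13, *Bbs1* at 5.08, *Bbs4* at 4.43 and *Bbs9* at 4.07. BBSome genes ranged from percentile 14.9 to 45.1 of detected genes, and none reached the median.

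The median levels of the 3 small GTPases were all above the median of detected genes, 17.5, that of *Arl6* only just, at percentile 50.8. *Arl13b*, the ciliary membrane GTPase whose protein marks cilia in microscopy, was at 15.4, 35.8 and 49.5 per kilobase. *Arl3*, which releases lipidated cargo inside the cilium, was at 26.5. *Arl6*, which recruits the BBSome, was at 11.0, 18.1 and 26.7, a range on both sides of that median. The level of *Arl6* was 17.2 with the longest transcript and 13.6 with the principal or first one. Of the membrane pair, the phosphoinositide phosphatase *Inpp5e* was at 18.01 and the receptor adaptor *Tulp3* at 6.59. With the longest transcript they were at 14.5 and 13.03, so that the gap depended on the length used. In *Arl3*, 10.7% of windows were shared with transcripts of *Gm47414* and others on the same strand. In *Inpp5e*, 20.1% of windows were shared with transcripts on the opposite strand, mainly of its neighbour *Pmpca*, and whether the counting used strand is not given in the sources used here.

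Other genes of the cilium were detected with them. Of 13 remaining subunits and helpers, 12 were in the table and all 12 were detected. They included *Dynll1* at a median of 531 CPM and *Dynlrb1* at 110 CPM, light chains that also serve other motors, *Mkks* at 30.01 CPM and *Bbs10* at 1.72 CPM, both of which help to assemble the BBSome. Of 15 transition zone genes, which gate the base of the cilium, 14 were detected, with *Cep290* at 23.1 CPM. *Nphp4* was under the limit, at a median of 0.935 CPM. Of 6 basal body genes, 5 were in the table and detected, with *Odf2* at 57.0 CPM and *Ofd1* at 19.3 CPM. Of the kinesin-2 genes, *Kif3b* was at 33.5 CPM, *Kifap3* at 29.7 CPM and *Kif17* at 1.77 CPM. Genes of motile cilia were low, and 1 of 13 was detected, *Ccdc39* at a median of 3.67 CPM. *Rsph4a* was just under the limit, at a median of 0.798 CPM and up to 3.37 CPM, and *Dnaic1*, *Tekt1* and *Hydin* had medians of 0.0466, 0.0311 and 0.0193 CPM.

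The members differed between libraries by more than counting error. The ratio of the highest to the lowest CPM was 2.43 for the median member and ran from 1.56 to 4.75. It was under 2 in 9 members (25.7%), from 2 to 3 in 19 and over 3 in 7 (20%). Among 9178 detected genes with median CPM in the range of the members, the median ratio was 2.66, with 24.4% under 2 and 40.4% over 3. After the error of counting was taken off, the coefficient of variation over the libraries was 24.0% for the median member, compared with 28.6% for those genes. Once divided by the trend over GC content, the median ratio was 2.28 for the members and 2.11 for those genes, so that the order of these values turned.

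**Figure D2:**
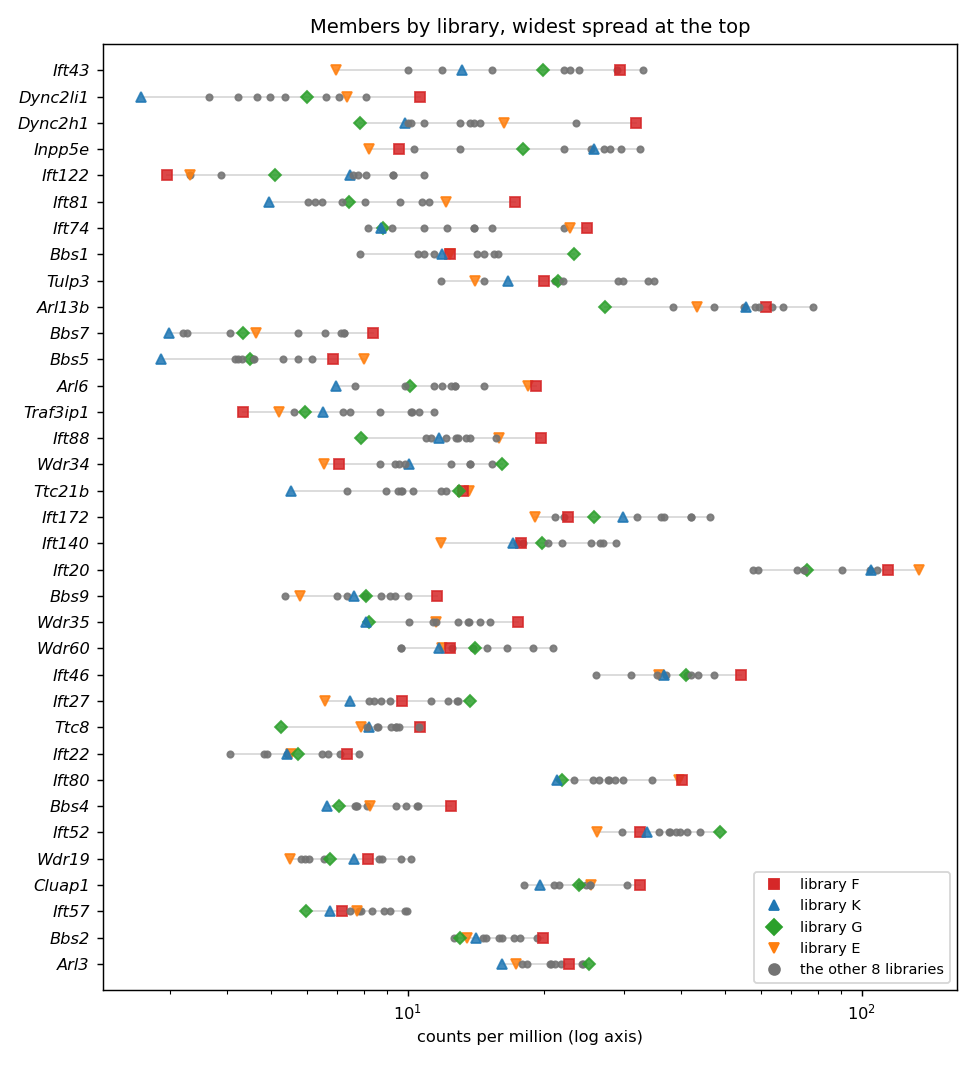
CPM (log axis) of the members in each of 12 libraries, with the highest-to-lowest ratio largest at the top; 4 libraries have a symbol of their own and the other 8 are grey. The library F is highest in 15 members and library K is lowest in 10.

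With library totals *Ift43* had the widest spread, at 6.94, 20.97 and 32.98 CPM. The lowest value was that of library E, the library richest in hair follicle keratins, and the highest that of library H. The next lowest library was M, at 10.02 CPM. The ratio was 4.75, and 5.95 after the GC adjustment. Without the 2 libraries rich in hair follicle keratins it was 3.29, under the values of *Dync2li1*, *Dync2h1*, *Ift122*, *Ift81* and *Inpp5e*. With TMM library sizes too, *Dync2h1* (5.06) and *Dync2li1* (4.63) exceeded *Ift43* (4.55).

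The dynein-2 genes came next. *Dync2li1* was at 2.59 CPM in library K, a median of 5.68 CPM and 10.7 CPM in library F, a ratio of 4.12, or 4.10 after the GC adjustment. *Dync2h1*, on chromosome 9 from 6928503 to 7184446, was at 7.86 CPM in library G, a median of 13.4 CPM and 31.8 CPM in library F. Its ratio was 4.04, or 3.14 after the adjustment. The library H, at 23.5 CPM, was the next highest for *Dync2h1*, and the other 10 libraries lay at or under 16.3 CPM. The remaining dynein-2 chains varied less. *Wdr34* was at 6.54, 9.98 and 16.2 CPM, a ratio of 2.47, or 1.71 after the adjustment, and *Wdr60* at 9.67, 13.2 and 20.9 CPM, a ratio of 2.16, or 2.25 after it.

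*Inpp5e*, *Ift122*, *Ift81* and *Ift74* also exceeded a ratio of 3, at 3.94, 3.67, 3.49 and 3.03. Their high and low libraries were not the same. *Ift122*, with a GC content of 53.1%, was at 2.96 CPM in library F and at 10.9 CPM in library B, and *Inpp5e*, with 53.9%, at 8.23 CPM in library E and 32.4 CPM in library B. *Ift74*, with 41.6%, was instead at its highest in library F, at 24.8 CPM, and its lowest in library M, at 8.19 CPM, and *Ift81*, with 43.2%, at 17.2 CPM in library F and 4.95 CPM in library K. After the GC adjustment the ratios were 2.28 for *Inpp5e*, 2.44 for *Ift122*, 2.86 for *Ift81* and 2.57 for *Ift74*, all smaller than before.

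With library totals the steadiest members were *Arl3*, *Bbs2* and *Ift57*. *Arl3* was at 16.1, 20.9 and 25.1 CPM, a ratio of 1.56, and 1.57 after the GC adjustment. *Bbs2* was at 12.6, 15.4 and 19.8 CPM, a ratio of 1.57 that became 1.90 after the adjustment. *Ift57* was at 5.97, 7.85 and 9.96 CPM, a ratio of 1.67 or 1.56 after it. The order depended on the scaling, since *Ift80* (1.39) and *Ift140* (1.54) were the lowest after the GC adjustment, and *Ift52* (1.61) and *Wdr19* (1.72) followed *Arl3* with TMM library sizes. *Arl13b* varied more, from 27.3 CPM in library G to 78.1 CPM in library H around a median of 57.0 CPM, and *Ift88* ran from 7.88 CPM in library G to 19.7 CPM in library F around 12.8 CPM. Their ratios were 2.87 and 2.50, and 2.49 and 1.67 after the GC adjustment. They were larger with TMM library sizes, at 3.11 and 3.12, and with median-of-ratios sizes, at 3.14 and 3.29. *Ift20*, the highest member, was at 57.7 CPM in library M and 133 CPM in library E, a ratio of 2.31, or 2.75 after the adjustment.

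GC content of the members ran from 39.9% (*Bbs5*) to 58.5% (*Wdr34*), with a median of 47.2% against 49.7% for detected genes. Across the 35 members, Spearman's rho between GC content and the log2 ratio of a library to the median was −0.72 in library E, −0.62 in library F, −0.59 in library A and −0.43 in library D, and 0.20 to 0.50 in the other 8. The members followed the same direction as all genes in each library. In the libraries of negative rho, members poor in GC such as *Bbs5*, *Arl6*, *Ift80* and *Ift74* were above their medians and members rich in GC such as *Ift122*, *Ift172*, *Inpp5e* and *Wdr34* below theirs in each of the 4. Not every member at these ends did so, as *Ift43* (55.8%) was above its median in libraries A and F and *Ift27* (55.8%) in library F, while *Ttc21b* and *Bbs4*, among the members poorest in GC, were below theirs in library D. Whether this relation to GC content goes with genotype cannot be told from these libraries.

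**Figure D3:**
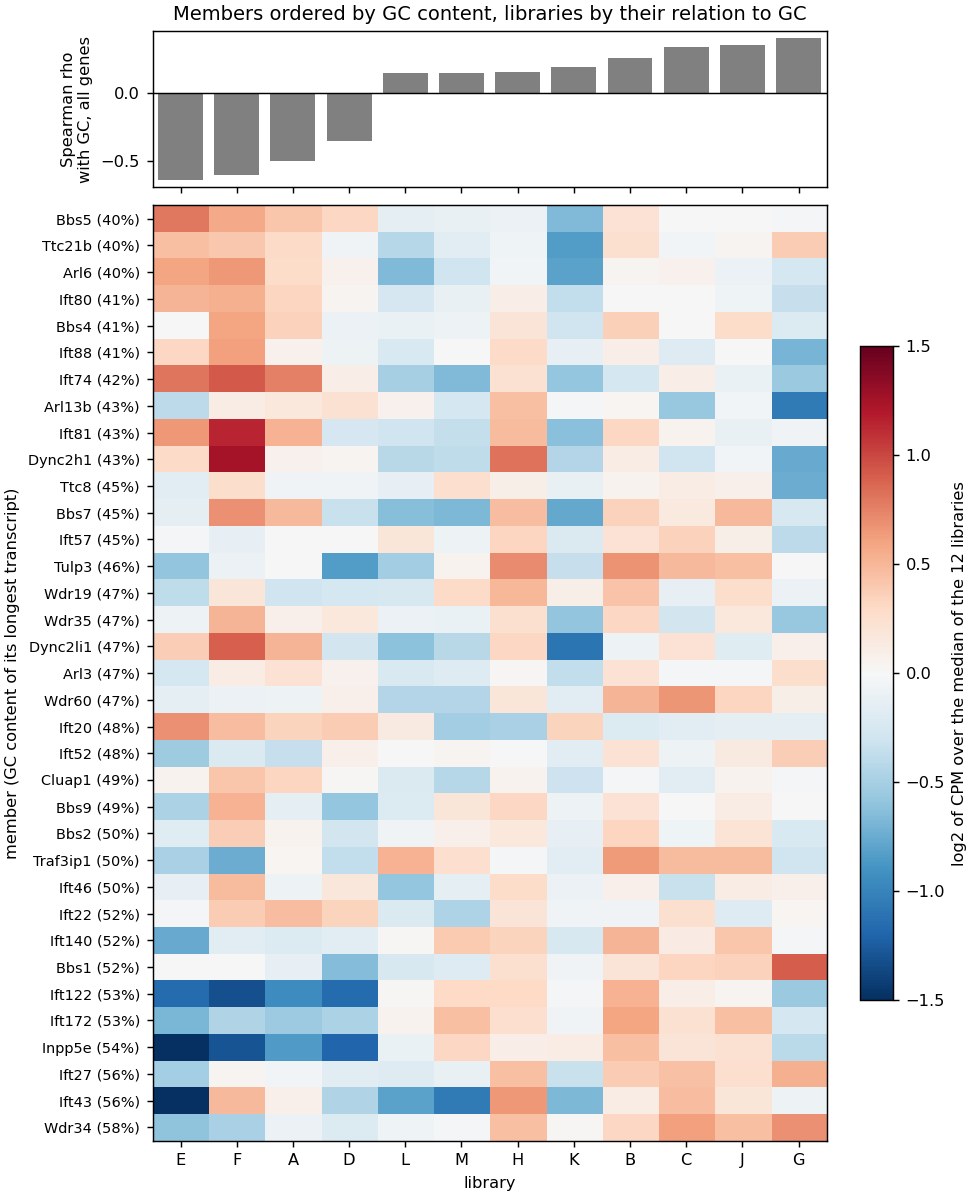
Lower panel, log2 of CPM over the median of 12 libraries for each member (rows, from lowest to highest GC content of the longest transcript, in percent); upper panel, bars of Spearman's rho with GC content over all detected genes in each library. Most members poor in GC are red and most members rich in GC blue in the 4 libraries with rho below 0, from −0.64 to −0.35.

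The median of the members was shifted in some libraries. The median log2 ratio over the 35 members was 0.38 in library F, against −0.22 for all detected genes in that library, with 24 members above their own median there and 11 below it, among them *Ift122* at −1.32 and *Inpp5e* at −1.30. It was 0.24 in library H and 0.22 in library B, where all genes were at −0.01 and 0.10. The median of the members was lowest in libraries K and L, at −0.22 and −0.21, where all genes were at −0.04 and −0.02. In the other 7 libraries it lay between −0.14 and 0.11. With TMM library sizes, which centre most genes, the shift was 0.61 in library F and −0.23 in library M, then the lowest. With the GC adjustment it was 0.25 in library F and −0.27 in library M. In library F the proliferation genes were high and the basal and suprabasal keratinocyte sums low (6292 and 9598 CPM), and their part in the shift was not tested. In library E, where proliferation genes and hair follicle keratins were both high, the members were at −0.14 and all detected genes at −0.22. There the members were at −0.04 with TMM library sizes and at 0.02 with median-of-ratios sizes.

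Whether genes of proteins that bind each other or share a subcomplex varied together was examined for 10 pairs over the 12 libraries, with log2(CPM + 1), 100000 resamples of a two-sided permutation test and Benjamini-Hochberg adjustment over the 10 pairs. Pearson's r was positive in 7 pairs, and 4 had an adjusted p under 0.05, namely *Ift74* with *Ift81*, *Ift122* with *Ift140*, *Dync2h1* with *Dync2li1*, and *Bbs2* with *Bbs7*. The median r was 0.486 over the 10 pairs, 0.281 over all 595 pairs of members and 0.069 over all pairs of detected genes. An r over 0.5 was found in the 4 called pairs and in *Wdr34* with *Wdr60*. It was also found in 30.3% of all pairs of members and 22.6% of all pairs of detected genes. The permutation test takes no account of variation shared by many genes, so a call is not specific to partners. After the GC adjustment 1 pair of 10 had an adjusted p under 0.05. Without the 2 libraries farthest from the median of the first gene, 0 pairs had an adjusted permutation p under 0.05 and 2 had an unadjusted one under it, with 10 libraries left.

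**Figure D4:**
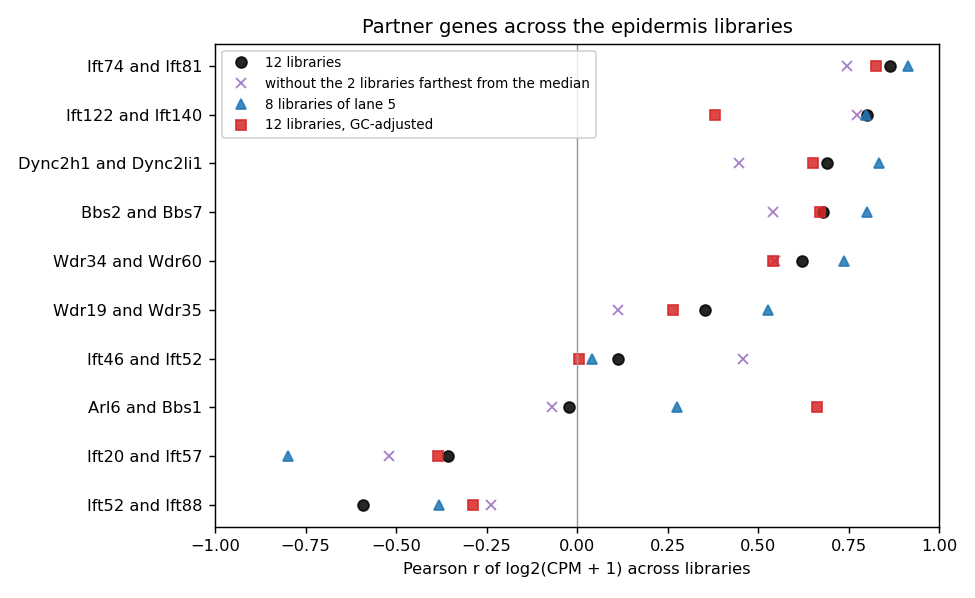
Pearson's r of log2(CPM + 1) (x axis) for 10 pairs of partner genes (rows): over 12 libraries (black), without the 2 libraries farthest from the median of the first gene (purple), over the 8 libraries of lane 5 (blue) and over 12 libraries after the GC adjustment (red). *Ift74* and *Ift81* stay between 0.75 and 0.91 in all 4, while *Ift122* and *Ift140* drop to 0.38 after the adjustment.

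*Ift74* and *Ift81* had the highest r of the 10 pairs. Pearson's r was 0.864 (permutation p = 0.00029, adjusted p = 0.0029) and Spearman's rho 0.867 (permutation p = 0.00057, adjusted p = 0.00525). Without libraries F and E, the libraries farthest from the median of *Ift74*, r was 0.746 (permutation p = 0.0138, adjusted p = 0.0688), within lane 5 it was 0.914, and after the GC adjustment 0.824 (permutation p = 0.00113, adjusted p = 0.0113). Both genes had their highest values in libraries F and E. They thus shared the libraries in which they were high.

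*Ift122* and *Ift140*, of the IFT-A core, had an r of 0.801 (permutation p = 0.00139, adjusted p = 0.00695) and a rho of 0.846 (permutation p = 0.00105, adjusted p = 0.00525). The r was 0.773 without libraries F and E (permutation p = 0.00911, adjusted p = 0.0688) and 0.798 within lane 5. After the GC adjustment it was 0.380 (permutation p = 0.219, adjusted p = 0.313), and no longer passed the threshold. *Ift140*, with a GC content of 51.7%, was at 11.9, 20.1 and 28.7 CPM, lowest in library E and highest in library B, where *Ift122* was highest too.

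*Dync2h1* and *Dync2li1* had an r of 0.691 (permutation p = 0.0133, adjusted p = 0.0444) and a rho of 0.720 (permutation p = 0.0111, adjusted p = 0.0368). Without libraries F and H, r was 0.448 (permutation p = 0.196, adjusted p = 0.28), and these were the libraries in which *Dync2h1* was highest. Within lane 5 it was 0.834, and after the GC adjustment 0.652 (permutation p = 0.0214, adjusted p = 0.0534). *Bbs2* and *Bbs7* had an r of 0.679 (permutation p = 0.0184, adjusted p = 0.046) and a rho of 0.636 (permutation p = 0.0301, adjusted p = 0.0753). Their r was 0.541 without libraries F and B (permutation p = 0.108, adjusted p = 0.246), 0.800 within lane 5 and 0.671 after the GC adjustment (permutation p = 0.0128, adjusted p = 0.0534). *Bbs7* was at 2.98, 5.18 and 8.37 CPM, with a ratio of 2.81 against 1.57 for *Bbs2*.

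The other 6 pairs had an adjusted p above 0.05. *Wdr34* and *Wdr60* had an r of 0.620 (permutation p = 0.0316, adjusted p = 0.0632), which was 0.738 within lane 5 and 0.540 after the GC adjustment. *Wdr19* and *Wdr35* were at 0.352 (permutation p = 0.262, adjusted p = 0.327) and *Ift46* and *Ift52* at 0.114 (permutation p = 0.726, adjusted p = 0.807). *Ift20* and *Ift57*, whose proteins bind directly, were at −0.36 (permutation p = 0.255, adjusted p = 0.327), at −0.80 within lane 5 and at 0.09 with TMM library sizes, so that the sign was not settled. *Ift52* and *Ift88* were at −0.59 (permutation p = 0.0423, adjusted p = 0.0705), and at −0.29 after the GC adjustment.

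*Arl6* and *Bbs1*, the GTPase and the BBSome subunit that binds it, were the pair that the adjustment changed most. Their r was −0.02 over the 12 libraries (permutation p = 0.946, adjusted p = 0.946) and 0.662 after the GC adjustment (permutation p = 0.0188, adjusted p = 0.0534). *Arl6* has a GC content of 40.4% and was at 6.96, 12.2 and 19.1 CPM, highest in library F, where rho with GC was −0.60. *Bbs1* has a GC content of 51.8% and was at 7.84, 12.4 and 23.3 CPM, highest in library G, where rho with GC was 0.40. Lane 4, with 3 libraries, and lane 6, with 1, held too few libraries for a value of their own.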

How the data were processed

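RNA was poly(A) selected from epidermis, and libraries made with a directional kit were sequenced as single reads of 51 bases. Per the study's methods, the authors mapped quality-trimmed reads to mm10 with Bowtie2 and quantified them with RSEM, and the deposited table holds gene counts as whole numbers, 1 column for each of 12 libraries. FastQC is also named in the submitters' processing notes. The strand setting, annotation and versions are not given in the sources used here.

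Counts were divided by the library total to give counts per 1000000 (CPM), and a gene was called detected at 1 CPM in 6 libraries. Levels between genes were compared per kilobase of joined exons (GENCODE M21, GRCm38, the assembly also called mm10), matched by symbol for 91.2% of detected genes. The GC adjustment divided each library by its median trend in 20 bins of GC content; it was chosen after the data were seen. Scripts were tested on simulated data. TMM sizes came from edgeR 4.0.16 and median-of-ratios sizes from DESeq2 1.42.0 in R 4.3.3, the rest from Python with scipy; no count model was fitted.

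Each library carried a mouse identifier of its own, which was not matched to genotype, so the planned genotype test and its alternatives were not run. The members, subcomplexes, gene lists and pairs were chosen with earlier results of these data known. The genes given by lowest, median and highest value were the 3 highest and lowest in level, the 3 widest and narrowest in spread, the genes of the 10 pairs, *Ift88* and *Arl13b*; others named were chosen after their values were seen. Depth and counting error limit the lowest member, at 58 counts, and intervals were not computed.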

Additional observations from a re-analysis of the deposited data

How the results depend on the processing

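The count of 35 detected members was the same at 0.5 and 2 CPM, in all 12 libraries or any 1, with TMM sizes and without the 2 libraries rich in hair follicle keratins. The median level per kilobase was 9.106 with the longest transcript, against 7.612 with joined exons. Of 35 members, 17 moved by at least 1 standard deviation of their values over libraries, which can lie within their range. The median highest-to-lowest ratio was 2.169 without the library of highest total and 2.169 without the libraries rich in hair follicle keratins, against 2.434. It was 2.535 with TMM and 2.614 with median-of-ratios sizes. The ratios of 26 and 28 of 35 members moved by 10% or more with these sizes, some up and some down. The range of the shift over libraries was 0.835 on the log2 scale with TMM and 0.9044 with median-of-ratios sizes, against 0.5994. Of 10 pairs, the number with an adjusted permutation p under 0.05 was 4, but 2 with 0.1 CPM added, 1 after the GC adjustment, 1 without the libraries rich in hair follicle keratins and 0 without the 2 libraries farthest from the median of the first gene, where 10 libraries remained and 2 pairs had an unadjusted p under 0.05. *Ift122* and *Ift140* lost their call in 3 of the 5 alternatives, *Dync2h1* with *Dync2li1* and *Bbs2* with *Bbs7* in 4 each, and *Ift74* with *Ift81* in 1. Lost calls went with a larger r in some cases and a smaller r in others. Without the libraries rich in hair follicle keratins, 10 libraries remained. There r was 0.714 for *Dync2h1* with *Dync2li1*, against 0.691 in the 12 libraries, and 0.715 for *Bbs2* with *Bbs7*, against 0.679. For *Ift122* with *Ift140* it was 0.755, against 0.801. With 0.1 CPM added r was slightly smaller for the first 2 of these pairs, at 0.679 and 0.669. The cause was not tested. No r of a pair called in the 12 libraries changed sign, while those of *Ift20* with *Ift57*, *Arl6* with *Bbs1* and *Ift46* with *Ift52*, not called, did in 1 or more alternatives. The GC adjustment and the removal of libraries rich in hair follicle keratins are choices made once the data had been seen.

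For genotype, no comparison was run. No paired analysis was possible because no library was given a genotype or a replicate number. The planned edgeR test, its DESeq2 alternative and the replicate block were therefore left out.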

Other observations

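In 4 members rich in GC the same 4 libraries held the 4 lowest values, and in 1 member poor in GC, *Bbs5*, the 4 highest, a pattern seen in the data and not tied to genotype. *Ift122* was at 3.87 CPM in library A, 3.32 CPM in library D, 3.32 CPM in library E and 2.96 CPM in library F. In the other libraries it was at 10.9 CPM in B, 8.09 CPM in C, 5.10 CPM in G, 9.28 CPM in H, 7.77 CPM in J, 7.46 CPM in K, 7.59 CPM in L and 9.29 CPM in M. *Inpp5e* was at 13.1, 10.3, 8.23 and 9.57 CPM in A, D, E and F, and at 32.4, 27.1, 17.9, 25.4, 27.9, 25.7, 22.1 and 29.5 CPM in B, C, G, H, J, K, L and M. *Ift172* was at 21.1, 22.1, 19.1 and 22.5 CPM in A, D, E and F, and at 46.4, 36.2, 25.7, 36.6, 42.1, 29.8, 31.9 and 42.03 CPM in the same order of the others. *Wdr34* was at 9.39, 8.67, 6.54 and 7.07 CPM in A, D, E and F, and at 12.4, 15.4, 16.2, 13.7, 13.7, 10.1, 9.56 and 9.88 CPM in the others. *Bbs5* was at 6.16, 5.72, 8.01 and 6.86 CPM in A, D, E and F, and at 5.32, 4.57, 4.48, 4.32, 4.59, 2.86, 4.16 and 4.23 CPM in the others. These genes were picked after their values were seen. The 4 libraries are those in which rho with GC content over all detected genes was below 0, from −0.64 to −0.35. The share of all detected genes with the same pattern was not computed, so the pattern cannot be read as a trait of the members. After the GC adjustment the 4 libraries held the 4 lowest values in 0 members and the 4 highest in 3, *Ift22*, *Ift20* and *Cluap1*.

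Among the other ciliary genes listed here, outside the 35 members, the steadiest was *Ofd1*, a basal body gene. Its highest-to-lowest ratio was 1.39 around a median of 19.3 CPM. The widest among the detected transition zone genes listed was *Mks1*, at 4.91, from 1.97 to 9.68 CPM, and its GC content was 54.6%.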
